A study of Mus musculus with 36 samples.

Results

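The soleus of 9 old and 9 young control mice was compared gene by gene, using 18 of the 36 RNA sequencing libraries of a study of muscle disuse and recovery. The members were chosen by their labels alone: 9 libraries came from male C57BL/6J mice of 22 to 24 months and 9 from male C57BL/6J mice of 6 months, and all 18 mice spent 10 days under control conditions with normal hind limb loading. The other 18 libraries came from mice of the same strain, sex and ages whose hind limbs were unloaded for 10 days (6 old, 4 young) or unloaded for 10 days and then reloaded for 3 days (4 old, 4 young); they enter here only to set the spread of each gene and to show the age difference under other loading. Every library was made from total RNA of frozen soleus of 1 mouse, depleted of ribosomal RNA and read as single 50-base reads. All mice had free access to standard chow.

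The soleus is a postural muscle of the calf that is rich in slow and fast oxidative fibres. With age, limb muscles of rodents lose motor units, and fibres that have lost their nerve are known to switch on a characteristic group of genes, among them the fetal subunit of the acetylcholine receptor and the transcription factor myogenin. Fibres also carry matched slow or fast sets of contractile proteins and metabolic enzymes, and a connective tissue scaffold made largely by fibroblasts, so the transcripts of a whole muscle report on all of these compartments at the same time.

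The acetylcholine receptor genes are shown first by sequence, because the fetal and the adult subunit differed in these mice. The 4 stretches below are the 250 bases before the annotated start of each gene in RefSeq (GRCm38.p6), 5′ to 3′ on the strand of the gene. Chrng, the fetal gamma subunit, lies on the plus strand (chr1:87205561-87205810). Chrna1, the alpha subunit common to fetal and adult receptors, lies on the minus strand (chr2:73580339-73580588). Chrne, the adult epsilon subunit, lies on the minus strand (chr11:70619195-70619444). Musk, the muscle-specific kinase that gathers receptors at the synapse, lies on the plus strand (chr4:58285712-58285961). Capitals mark CAGCTG, which reads the same on both strands, and CACCTG, searched on both strands and found here only as CAGGTG; both are forms of the E-box, the kind of site that myogenic factors such as myogenin bind.
Chrng: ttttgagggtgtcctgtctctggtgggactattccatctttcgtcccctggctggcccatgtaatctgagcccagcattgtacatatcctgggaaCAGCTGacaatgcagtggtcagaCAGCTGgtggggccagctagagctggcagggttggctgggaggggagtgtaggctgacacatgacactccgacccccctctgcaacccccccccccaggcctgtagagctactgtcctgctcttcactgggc
Chrna1: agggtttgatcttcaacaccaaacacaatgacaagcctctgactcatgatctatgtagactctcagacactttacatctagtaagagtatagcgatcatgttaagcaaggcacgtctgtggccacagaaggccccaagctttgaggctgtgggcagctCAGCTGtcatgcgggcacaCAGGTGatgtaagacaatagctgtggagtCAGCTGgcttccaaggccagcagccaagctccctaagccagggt
Chrne: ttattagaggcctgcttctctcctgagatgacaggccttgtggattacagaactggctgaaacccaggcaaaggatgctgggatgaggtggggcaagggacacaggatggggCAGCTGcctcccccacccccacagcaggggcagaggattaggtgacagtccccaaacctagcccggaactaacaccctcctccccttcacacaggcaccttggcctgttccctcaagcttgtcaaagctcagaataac
Musk: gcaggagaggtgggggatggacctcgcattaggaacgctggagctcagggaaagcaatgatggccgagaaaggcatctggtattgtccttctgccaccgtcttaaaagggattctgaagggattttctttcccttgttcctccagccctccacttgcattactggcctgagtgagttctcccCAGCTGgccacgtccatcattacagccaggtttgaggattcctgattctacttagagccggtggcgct
The Chrng window held 2 copies of CAGCTG, 149 and 126 bases before the start. The Chrna1 window held 2 copies of CAGCTG, 86 and 38 bases before the start, and 1 CAGGTG between them, 67 bases before the start. The Chrne and Musk windows held 1 CAGCTG each, 132 and 62 bases before the start, and no matches overlapped. Of 32851 windows of the same length in RefSeq, 13.0% held CAGCTG at least once and 1.26% held it 2 or more times, while 17.2% held CACCTG on either strand. These matches describe the letters of the windows only; binding was not measured.

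Of 15031 genes with enough reads to be tested, 3561 (23.7%) differed between old and young control soleus at a Benjamini-Hochberg adjusted p under 0.05 in edgeR's quasi-likelihood test. In old soleus 1824 genes (12.1% of those tested) were higher and 1737 (11.6%) were lower. All counts of gene lists in controls below stand against these background shares. Most differences were small: the median size among the called genes was 0.31 on the log2 scale, and 328 genes changed at least 2-fold, 229 of them higher and 99 lower in old mice. The median log2 fold change of all genes tested was 0.01. The 9 old and 9 young values did not overlap at all for 178 genes that were higher in old mice (1.18%) and for 198 that were lower (1.32%). The p-values of this test weigh each difference against the spread between mice within the 6 groups of all 36 libraries. In a bulk sample fewer cells of a type and less RNA per cell cannot be told apart.

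The libraries held 33.01 to 37.93 M assigned reads in old mice and 31.97 to 35.96 M in young mice, so depth differed little. Levels below are read counts scaled to library size as adjusted by edgeR's TMM scaling (CPM), whereas shares of reads use the unadjusted counts. Fold changes are old over young on the log2 scale with the standard error of the fit. Several sets of libraries stood apart within their group. Old mice 1, 4 and 5 had the lowest scores on the first principal component of the 18 controls, which held 37.3% of the variance: these 3 scored -22.4, -20.7 and -23.3, the other old mice -12.2 to 1.64, and the young mice 5.55 to 14.6. Without old mice 1, 4 and 5, 1889 of 14997 genes tested were called, 970 higher and 919 lower. Of these, 917 higher and 870 lower were already called with all 18 controls. No gene called in both fits differed in direction. Young mice 4, 7 and 9 had high Myh4, and old mice 3, 4 and 6 had high interferon-stimulated genes. Young mice 1, 2, 7 and 8 had more reads of the ribosomal precursor Rn45s. Leaving out each of these sets gave 2402, 2672 and 2654 called genes. Of these, 1200, 1350 and 1328 were higher and 1202, 1322 and 1326 lower. These 4 sets were chosen after seeing the values, by the level of a single gene each and not by the principal component, so leaving them out lowers by construction any rise or fall that chose them. Old mice 7, 8 and 9 also stood apart, since their deviations from the old mean correlated across genes at 0.47 to 0.57, and among controls numbered 1 to 6 at both ages 1756 genes were higher and 1788 lower.

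Defining markers of the tissue were present in every control library. Slow and fast type IIa myosin made up most of the adult myosin heavy chain reads in both ages, as is usual in mouse soleus. Liver markers summed to 6.24 to 17.0 CPM in old mice and 7.50 to 38.7 CPM in young mice, and none of the 11 was called.

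Some genes of the neuromuscular synapse were higher in old soleus, among them the fetal acetylcholine receptor subunit. Of 17 synaptic genes tested, 7 rose and none fell (background 12.1% and 11.6%), with a median log2 fold change of 0.20 against 0.01 for all genes tested. Those that rose were the receptor subunits Chrng, Chrnd, Chrna1 and Chrnb1, and Musk, Lrp4 and Dok7, which together form and act on the agrin receptor that clusters acetylcholine receptors under the nerve ending.

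Chrng (chr1:87205811-87211835, plus strand, mm10) spanned 0.117, 2.74 and 18.1 CPM (lowest, median, highest) in old mice, against 0.0919, 0.179 and 1.02 CPM in young mice. Old mouse 5 was the highest, and old mice 1 to 4 also stood above every young mouse, while old mice 6 to 9 lay within the young range. The log2 fold change was 3.65 ± 0.71 (adjusted p = 0.000344), and it was 2.81 without old mouse 5 and 2.30 (adjusted p = 0.021) without old mice 1, 4 and 5. Chrne, the adult subunit that takes the place of Chrng after birth, had 4.87, 5.31 and 5.50 CPM in old mice and 4.04, 4.66 and 5.27 CPM in young mice. Its difference of 0.19 ± 0.11 did not pass the test (adjusted p = 0.196), although it did in a fit of the 18 controls alone (adjusted p = 0.0162).

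The subunits shared by fetal and adult receptors also rose. Chrnd, the delta subunit, had 5.31, 9.12 and 30.4 CPM in old mice and 4.80, 5.68 and 7.16 CPM in young mice, a log2 fold change of 1.07 ± 0.25 (adjusted p = 0.00205). Chrna1 had 35.2, 47.8 and 142 CPM in old mice and 28.4, 35.3 and 47.1 CPM in young mice (0.82 ± 0.21, adjusted p = 0.00474). Chrnb1, the beta subunit, had 15.8, 19.2 and 41.2 CPM in old mice and 12.0, 14.9 and 18.8 CPM in young mice (0.67 ± 0.14, adjusted p = 0.000713). In all 3 genes old mice 5 and 1 were the highest, and the overlap with young mice came from old mice numbered 6 to 9.

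The kinase was also highest in old mice 5, 1 and 4, while its co-receptor was spread more evenly. Musk had 65.8, 74.6 and 158 CPM in old mice and 60.5, 66.6 and 72.4 CPM in young mice (0.48 ± 0.12, adjusted p = 0.00357; 0.46, adjusted p = 0.069, when only its most abundant transcript was counted). Lrp4, the co-receptor for the nerve-derived signal agrin, had 48.9, 56.7 and 77.6 CPM in old mice and 39.0, 44.8 and 51.4 CPM in young mice (0.36 ± 0.08, adjusted p = 0.00223). The count of synaptic genes that rose was 3 of 17 without old mice 1, 4 and 5. Chrng, Chrnb1 at 0.31 (adjusted p = 0.033) and Lrp4 at 0.30 (adjusted p = 0.017) kept their calls, and Chrnd at 0.48 (adjusted p = 0.099), Chrna1 at 0.29 (adjusted p = 0.25) and Musk at 0.17 (adjusted p = 0.16) did not.

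Regulators and targets of the response to denervation gave some of the largest rises in the muscle. Of 18 such genes, 12 rose and none fell (background 12.1% and 11.6%), with a median log2 fold change of 0.77. Gadd45a, a growth arrest gene induced by denervation (chr6:67035096-67037407), had 3.84, 15.7 and 150.4 CPM in old mice and 2.98, 5.23 and 7.08 CPM in young mice. For Gadd45a, old mice 1 to 6 all stood above every young mouse and old mice 7 to 9 lay among the young.

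The log2 fold change of Gadd45a was 3.11 ± 0.56 (adjusted p = 0.000129). Runx1, a transcription factor that protects denervated fibres, had 9.20, 19.8 and 139 CPM in old mice and 9.93, 11.3 and 17.2 CPM in young mice (1.92 ± 0.40, adjusted p = 0.00062). Myog, which encodes myogenin, had 3.06, 5.27 and 38.3 CPM in old mice and 2.39, 3.30 and 6.46 CPM in young mice (1.65 ± 0.41, adjusted p = 0.00391; 1.37, adjusted p = 0.066, without young mice 1, 2, 7 and 8). For both transcription factors the values of old mice 6 to 9 lay close to or inside the young range.

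Other members of the group had other roles. Gdf5, a secreted growth factor of the bone morphogenetic protein family, had 0.351, 2.06 and 29.9 CPM in old mice and 0.331, 0.472 and 0.991 CPM in young mice (3.48 ± 0.68, adjusted p = 0.000315, and 2.58 without old mouse 5). Ncam1, a cell adhesion molecule that spreads over the fibre surface after nerve loss, had 31.6, 39.7 and 81.0 CPM in old mice and 22.9, 26.4 and 35.8 CPM in young mice (0.73 ± 0.16, adjusted p = 0.00128). Cdkn1a, the cell cycle inhibitor p21, had 6.34, 17.1 and 45.6 CPM in old mice and 3.74, 6.86 and 11.9 CPM in young mice (1.57 ± 0.31, adjusted p = 0.000423). Cdkn1a differed from the rest in its order of mice: after old mice 1, 4 and 5 it was highest in old mice 7 to 9, all above every young mouse.

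When old mice 1, 4 and 5 were left out, 3 of the 18 denervation genes rose and 1 fell. Gadd45a kept its call at 1.17 (adjusted p = 0.040), whereas Runx1 at 0.51 (adjusted p = 0.20), Myog at 0.26 (adjusted p = 0.63) and Gdf5 at 1.06 (adjusted p = 0.13) did not. Ncam1 at 0.42 (adjusted p = 0.055) and Cdkn1a at 0.75 (adjusted p = 0.052) lay just past the threshold. Leaving out any 1 control library gave 12 or 13 rises among the 18.

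The pair of keratins normally found in simple epithelia moved with the same mice. Krt18 (chr15:102028216-102032026) had the largest rise among called genes averaging 5 CPM or more in controls: 0.0586, 1.21 and 38.6 CPM in old mice and 0.0628, 0.151 and 0.311 CPM in young mice. Old mice 1, 4 and 5 had 33.9, 21.9 and 38.6 CPM, and old mice 2, 3 and 6 had 1.18 to 3.62 CPM, above every young mouse. Only old mice 1, 4 and 5 exceeded 5 CPM, so Krt18 entered this ranking through their values. The log2 fold change was 6.06 ± 1.07 (adjusted p = 9.97e-05), and 2.72 (adjusted p = 0.033) without old mice 1, 4 and 5. Its partner Krt8 had 0, 0.235 and 4.81 CPM in old mice and 0, 0.0314 and 0.181 CPM in young mice (4.76 ± 1.02, adjusted p = 0.000904), and was no longer called without those 3 mice (1.29, adjusted p = 0.44). In limma voom with sample weights neither keratin was called (Krt18 3.53, adjusted p = 0.12; Krt8 2.67, adjusted p = 0.10), nor was Gdf5 (1.86, adjusted p = 0.067). Of 10 listed markers of skin and epithelium only 4 passed the filter on low counts, and these 2 keratins were the ones that rose.

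**Figure D1:**
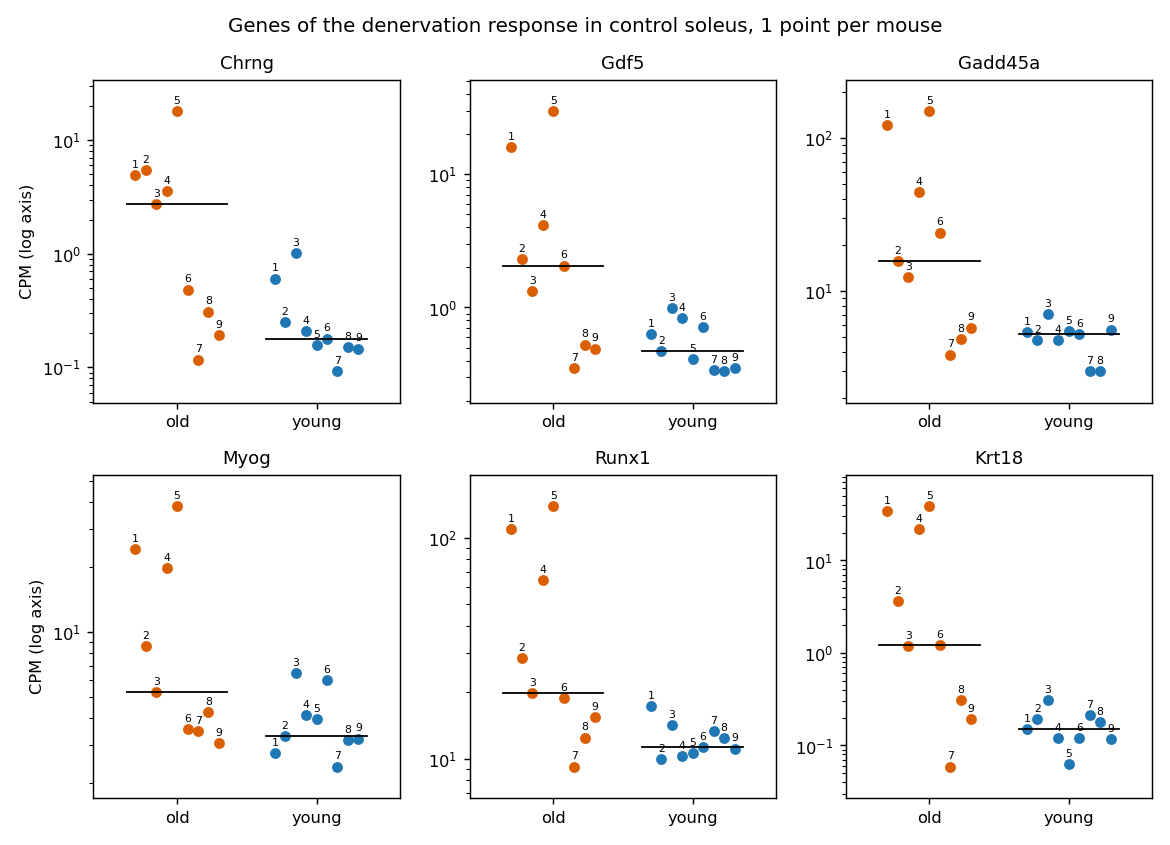
Level of Chrng, Gdf5, Gadd45a, Myog, Runx1 and Krt18 in each control soleus (CPM, log axis), old mice at left and young mice at right, with points numbered by mouse and a line at the group median. Old mice 1, 4 and 5 lie above every young mouse for all 6 genes, and old mice 7 to 9 lie within or close to the young range.

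Aif1l, an actin-binding protein, also ranked among the largest rises, with 4.49, 14.3 and 138 CPM in old mice and 2.66, 3.67 and 5.04 CPM in young mice. Its log2 fold change was 2.92 ± 0.50 (adjusted p = 7.41e-05), 2.00 without old mouse 5 and 1.42 (adjusted p = 0.0059) without old mice 1, 4 and 5. Of 11 Schwann cell and myelin markers 2 rose and none fell (background 12.1% and 11.6%).

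A second set of genes was higher in every old mouse than in every young mouse, including those with low synaptic genes, and several of them handle calcium or excitation. Gnal, a G protein alpha subunit that stimulates adenylyl cyclase, had 14.9, 22.9 and 42.4 CPM in old mice and 3.77, 5.41 and 6.20 CPM in young mice. The lowest old value was more than the highest young value, and the log2 fold change was 2.39 ± 0.19 (adjusted p = 1.24e-10). Ryr2, the cardiac-type calcium release channel (chr13:11553103-12106945), had 5.65, 6.63 and 16.3 CPM in old mice and 1.22, 1.69 and 2.15 CPM in young mice (2.28 ± 0.23, adjusted p = 1.59e-08). Here old mice 7 and 8 were the highest, with 16.3 and 12.9 CPM, and old mice 1, 4 and 5 the lowest with old mouse 4 at 5.65 CPM, so its order ran against that of the denervation genes.

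Amph, which encodes amphiphysin, a membrane-bending protein of endocytosis (chr13:18948351-19150919), had 7.55, 8.80 and 12.1 CPM in old mice and 1.47, 1.81 and 4.30 CPM in young mice (2.18 ± 0.20, adjusted p = 3.69e-09). The highest young value, 4.30 CPM in young mouse 8, still lay below every old mouse. Kcnn3, a calcium-activated potassium channel, had 21.8, 28.7 and 68.9 CPM in old mice and 10.3, 14.1 and 17.2 CPM in young mice (1.42 ± 0.19, adjusted p = 3.54e-06), again without overlap. Casq2, the cardiac and slow-fibre form of the calcium store protein calsequestrin, had 267, 334 and 369 CPM in old mice and 174, 214 and 259.7 CPM in young mice (0.57 ± 0.10, adjusted p = 9.88e-05).

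Ryr3 and Tecrl also rose, with overlap through young mouse 8. Ryr3, the third calcium release channel of the family (chr2:112631382-113217083), had 10.4, 20.9 and 39.7 CPM in old mice and 2.39, 3.09 and 11.7 CPM in young mice (2.47 ± 0.31, adjusted p = 1.25e-06). Tecrl, a membrane protein of the endoplasmic reticulum linked in humans to heart rhythm disorders, had 10.7, 22.4 and 41.2 CPM in old mice and 2.97, 4.19 and 15.3 CPM in young mice (1.89 ± 0.32, adjusted p = 6.89e-05). Of 20 listed ion channel and excitability genes 4 rose, among them Kcnn3, Cacng1 and Sln, and 1 fell, Jph1 (background 12.1% and 11.6%). Cacng1, the gamma subunit of the muscle calcium channel, had 34.7, 57.7 and 94.3 CPM in old mice and 35.3, 40.0 and 43.8 CPM in young mice (0.54 ± 0.14, adjusted p = 0.00567; 0.22, adjusted p = 0.21, without old mice 1, 4 and 5). Jph1, a junctophilin that holds the tubule and store membranes together, had 188, 218 and 246 CPM in old mice and 215, 258 and 277 CPM in young mice (-0.22 ± 0.06, adjusted p = 0.00466; -0.16, adjusted p = 0.070, without young mice 4, 7 and 9).

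**Figure D2:**
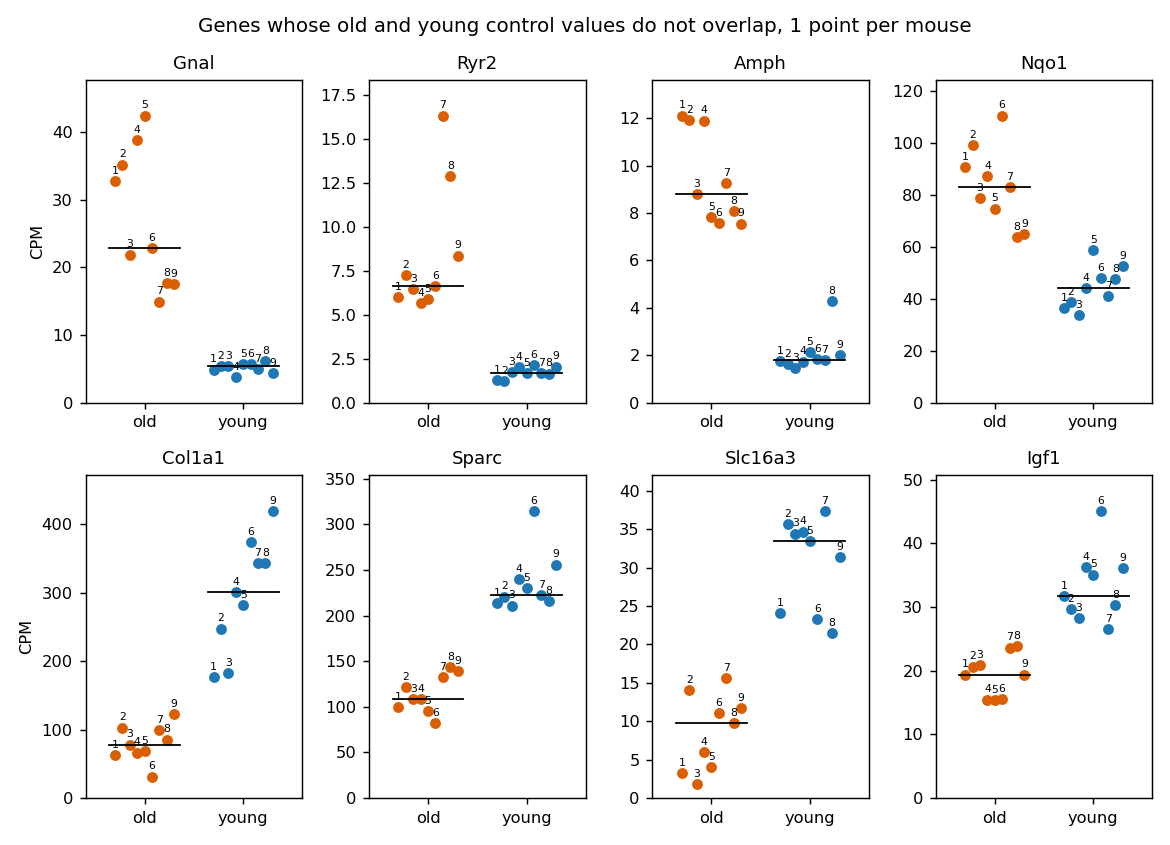
Level of Gnal, Ryr2, Amph, Nqo1, Col1a1, Sparc, Slc16a3 and Igf1 in each control soleus (CPM), old mice at left and young mice at right, with points numbered by mouse and a line at the group median. For all 8 genes the 9 old and 9 young values do not overlap, and the mice that are extreme within a group differ from gene to gene.

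Most slow-fibre genes tested were higher and most fast-fibre genes lower in old soleus. Of 12 slow-fibre sarcomere and calcium-handling genes 7 rose and 1 fell, with a median log2 fold change of 0.35, and of 14 fast-fibre genes none rose and 10 fell, with a median of -0.41. The summed level of the fast genes was 25253 to 41641 CPM in old mice and 42061 to 55267 CPM in young mice, without overlap. The summed slow genes spanned 34727 to 48876 CPM in old mice and 32299 to 46862 CPM in young mice, with overlap.

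Myh7, the slow myosin heavy chain, had 10671, 13914 and 20261 CPM in old mice and 9223, 10305 and 16630.3 CPM in young mice (0.39 ± 0.11, adjusted p = 0.00821). Young mouse 8 was the highest young mouse, above 7 of the 9 old mice. As a share of the reads of the 4 adult myosin heavy chains, Myh7 took 46.1 ± 9.31% in old mice and 32.5 ± 5.63% in young mice (SD, n = 9 each; exact two-sided permutation p = 0.00107, 0.0025 adjusted over the 7 shares tested). Tnni1, slow troponin I, had 961, 1131 and 1695 CPM in old mice and 754, 844 and 1390.4 CPM in young mice (0.40 ± 0.12, adjusted p = 0.0136). Pln, phospholamban, which restrains the slow-fibre calcium pump, had 10.0, 12.0 and 43.2 CPM in old mice and 6.51, 10.3 and 17.9 CPM in young mice (1.03 ± 0.26, adjusted p = 0.00403). The Pln rise lay in old mice 7 to 9, which had 39.1 to 43.2 CPM against 10.0 to 17.2 CPM in the other old mice, and among controls numbered 1 to 6 it was 0.31 (adjusted p = 0.18).

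The fast-fibre genes were led by those of the fastest, type IIb fibres. Mybpc2, the fast form of myosin-binding protein C (chr7:44501699-44524669), had 1.47, 42.4 and 67.3 CPM in old mice and 148, 233 and 608 CPM in young mice. The groups were far apart, and the log2 fold change was -3.07 ± 0.54 (adjusted p = 9.56e-05). Myh4, the type IIb myosin heavy chain (chr11:67237812-67260447), had 33.2, 56.8 and 752 CPM in old mice and 73.2, 387 and 5952 CPM in young mice (-3.79 ± 0.82, adjusted p = 0.000979), and old mouse 8, the highest old mouse, moved it to -4.99 when left out. Its young values were split, with 3807, 5952 and 5296 CPM in young mice 4, 7 and 9 and 73.2 to 984 CPM in the others.
Pvalb, parvalbumin, the calcium buffer of fast fibres, had 6.36, 43.3 and 149 CPM in old mice and 70.3, 143 and 456 CPM in young mice (-1.84 ± 0.46, adjusted p = 0.00395; -1.34, adjusted p = 0.079, among controls numbered 1 to 6). The same 3 young mice were highest.

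The troponin genes of fast fibres fell by smaller and more even amounts. Tnni2, fast troponin I, had 1601, 2349 and 2708 CPM in old mice and 2623, 2966 and 3202 CPM in young mice (-0.41 ± 0.08, adjusted p = 0.000268). Tnnt3, fast troponin T, had 3304, 4726 and 5203 CPM in old mice and 5248, 6012 and 6441 CPM in young mice without overlap (-0.42 ± 0.08, adjusted p = 0.000269). Tnnc2, fast troponin C, had 1347, 2212 and 2512 CPM in old mice and 2393, 2763 and 2981 CPM in young mice (-0.41 ± 0.08, adjusted p = 0.000306). Old mouse 1 was the lowest for all 3 troponins. The intermediate fast myosins were not called: Myh1 (type IIx) differed by -0.67 ± 0.29 (adjusted p = 0.0929; -0.89, adjusted p = 0.021, without old mouse 6) and Myh2 (type IIa) by -0.20 ± 0.18 (adjusted p = 0.44). As shares of the 4 adult myosins, Myh4 took 0.422% in old mice and 5.21% in young mice (exact two-sided permutation p = 0.0298, adjusted 0.0521), and Myh1 took 12.5% in old mice and 18.5% in young mice (exact p = 0.0419, adjusted 0.0586).

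Leaving out young mice 4, 7 and 9, chosen for their Myh4 level, left Mybpc2 called at -2.39 (adjusted p = 0.0032) but not Myh4 at -1.23 (adjusted p = 0.21) or Pvalb at -0.91 (adjusted p = 0.17). The counts then were 6 of 14 fast genes lower and 2 of 12 slow genes higher, with Myh7 at 0.35 (adjusted p = 0.056) and Tnni1 at 0.33 (adjusted p = 0.098). Without old mice 1, 4 and 5 the slow count was 3 of 12, with Myh7 at 0.28 (adjusted p = 0.085) and Tnni1 at 0.29 (adjusted p = 0.12). Without old mice 3, 4 and 6 it was also 3 of 12, with Myh7 at 0.32 (adjusted p = 0.059). Of 7 markers of gastrocnemius and other fast muscle, summed at 206 to 1115 CPM in old mice and 459 to 7578 CPM in young mice, 3 fell (Myh4, Mybpc2 and Pvalb) and 1 rose (Sln, the calcium pump inhibitor sarcolipin). Whether a neighbouring fast muscle contributed to young mice 4, 7 and 9 was not tested.

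Slc16a3, Mylk4 and Kcng4 were also among the 10 steepest falls. Slc16a3, the lactate exporter of fast fibres (chr11:120948484-120959000), had 1.82, 9.79 and 15.6 CPM in old mice and 21.5, 33.4 and 37.4 CPM in young mice without overlap (-1.84 ± 0.27, adjusted p = 9.19e-06). Mylk4, a member of the myosin light chain kinase family, had 8.73, 14.4 and 23.0 CPM in old mice and 23.4, 39.5 and 93.6 CPM in young mice (-1.70 ± 0.32, adjusted p = 0.000226). Kcng4, a modulatory potassium channel subunit, had 1.92, 2.49 and 7.65 CPM in old mice and 7.19, 9.25 and 14.0 CPM in young mice (-1.64 ± 0.28, adjusted p = 6.59e-05). Only old mouse 2 reached the young range for Kcng4.

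Most enzymes of glycolysis tested were lower in old soleus. Of 16 tested 11 fell and none rose, with a median of -0.34, and for 5 the groups did not overlap (background 1.32%). Eno3, the muscle enolase (chr11:70657176-70662513), had 542, 928 and 1156 CPM in old mice and 1136, 1586 and 1726 CPM in young mice (-0.74 ± 0.10, adjusted p = 5.97e-06). Only old mouse 7 lay above the lowest young mouse, number 8. Ldha, lactate dehydrogenase A, had 338, 403 and 507 CPM in old mice and 518, 591 and 658 CPM in young mice without overlap (-0.52 ± 0.08, adjusted p = 1.77e-05). Pgam2, the muscle phosphoglycerate mutase, fell by 0.45 ± 0.07 (adjusted p = 1.29e-05) and Pgk1, phosphoglycerate kinase, fell by 0.34 ± 0.05 (adjusted p = 5.99e-06). Ckm, the muscle creatine kinase, also fell without overlap, with 4037, 5422 and 5731 CPM in old mice and 5791, 6738 and 7559 CPM in young mice (-0.36 ± 0.08, adjusted p = 0.00165). The count was 9 of 16 without young mice 4, 7 and 9 and 10 of 16 without old mice 1, 4 and 5.

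Most nuclear genes for the mitochondrial respiratory chain fell, by small amounts. Of 79 subunits 61 fell and none rose, with a median of -0.23. Their summed level was 17182 to 25285 CPM in old mice and 24233 to 26781 CPM in young mice. The young mice lay close together, old mice 7 and 9 lay in the young range, and old mice 1 and 5 were the lowest with 17182 and 19101 CPM. Genes encoded by the mitochondrial genome itself are not analysed here.

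Ndufab1, the acyl carrier protein of complex I (chr7:122088044-122101848), had 44.8, 59.4 and 78.7 CPM in old mice and 77.3, 82.3 and 89.7 CPM in young mice (-0.43 ± 0.07, adjusted p = 6.36e-05). Only old mouse 7 lay above the lowest young mouse, also number 7. Uqcrq of complex III fell by 0.37 ± 0.06 (adjusted p = 6.02e-05) and Cox5b of cytochrome c oxidase by 0.34 ± 0.06 (adjusted p = 5.32e-05). The standard deviation of log2 level was larger in old mice for all 79 subunits, against 9785 of the 15031 genes tested. Without old mice 1, 4 and 5 the count was 34 of 79 with a median of -0.14, and without young mice 4, 7 and 9 it was 52 of 79.

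Of 24 fatty acid oxidation genes 6 fell and none rose (background 11.6% and 12.1%, median -0.17). Acot13, a mitochondrial thioesterase, had 42.5, 55.0 and 62.6 CPM in old mice and 56.5, 60.3 and 70.8 CPM in young mice (-0.25 ± 0.06, adjusted p = 0.00439), and Acadl, long-chain acyl-CoA dehydrogenase, had 229, 276 and 339 CPM in old mice and 297, 345 and 373 CPM in young mice (-0.29 ± 0.09, adjusted p = 0.0162). Both overlapped between the groups. No gene of this list was called without old mice 1, 4 and 5, whereas 22 of 24 were lower among controls numbered 1 to 6. Acadl was also not called without old mice 3, 4 and 6 (-0.27, adjusted p = 0.064). For both genes named, old mice 7 to 9 lay within the young range. Of 18 mitochondrial regulators 5 fell, among them Opa1, which fuses inner membranes, with 143, 161 and 184 CPM in old mice and 173, 186 and 209 CPM in young mice (-0.23 ± 0.05, adjusted p = 0.000397). Ppargc1a, the coactivator PGC-1α, was variable at both ages, with 55.5, 113 and 447 CPM in old mice and 58.3, 143 and 333 CPM in young mice (-0.24 ± 0.31, adjusted p = 0.623).

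**Figure D3:**
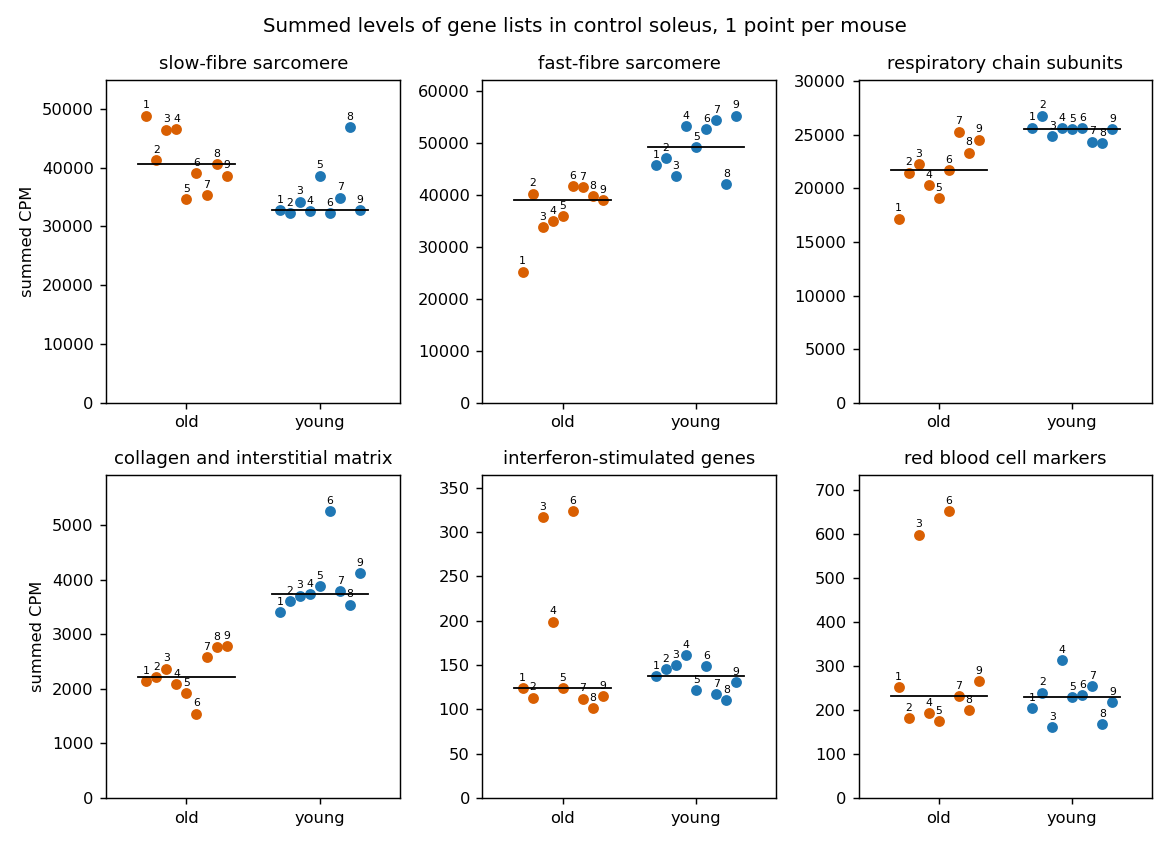
Summed level (CPM) of slow sarcomere, fast sarcomere, respiratory chain, collagen and matrix, interferon-stimulated and red blood cell genes in each control soleus, old mice at left and young mice at right, points numbered by mouse and a line at the median. The fast sarcomere and matrix sums do not overlap between the ages, the respiratory chain sums of old mice 7 and 9 lie in the young range, and the interferon sums are high in old mice 3, 4 and 6 only.

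Most matrix genes of connective tissue tested were lower in old soleus. Of 27 fibrillar collagen and interstitial matrix genes 19 fell and none rose, with a median of -0.62, and for 10 of the 27 the groups did not overlap (background 1.32%). The summed level was 1545 to 2777 CPM in old mice and 3404 to 5264 CPM in young mice, without overlap. Col1a1, the alpha 1 chain of type I collagen (chr11:94936224-94953042), had 31.2, 78.0 and 123 CPM in old mice and 176, 301 and 419.7 CPM in young mice. Its log2 fold change was -1.90 ± 0.23 (adjusted p = 5.62e-07), and old mouse 6 was the lowest.

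Col3a1, type III collagen, had 78.0, 198 and 234 CPM in old mice and 354, 417 and 909 CPM in young mice (-1.36 ± 0.23, adjusted p = 7.49e-05). Sparc, a collagen-binding glycoprotein (chr11:55394159-55420080), had 82.4, 109 and 143 CPM in old mice and 211, 223 and 315 CPM in young mice (-1.04 ± 0.12, adjusted p = 2.07e-07). Type VI collagen, which surrounds muscle fibres, fell in step: Col6a1 had 37.1, 58.5 and 63.2 CPM in old mice and 92.2, 101 and 132 CPM in young mice (-0.93 ± 0.10, adjusted p = 4.26e-08). Col6a2 had 25.7, 41.8 and 45.5 CPM in old mice and 63.1, 71.8 and 85.7 CPM in young mice (-0.87 ± 0.10, adjusted p = 2.55e-07). None of these 5 matrix genes overlapped between the ages, and young mouse 6 was the highest young mouse for Col3a1, Sparc, Col6a1 and Col6a2. Cilp2, a cartilage and matrix protein, had 2.33, 3.45 and 8.56 CPM in old mice and 6.43, 16.3 and 23.0 CPM in young mice (-1.83 ± 0.24, adjusted p = 2.33e-06).

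The basement membrane, the thin sheet around each fibre and vessel, showed falls in 10 of 17 genes and no rise (median -0.28). Col4a1, the main chain of type IV collagen, had 147, 200.4 and 236 CPM in old mice and 234, 308 and 346 CPM in young mice (-0.62 ± 0.09, adjusted p = 6.29e-06), and its partner Col4a2 fell by 0.50 ± 0.07 (adjusted p = 7.33e-06). Nid1, nidogen, had 77.9, 103 and 115 CPM in old mice and 126, 131 and 172 CPM in young mice without overlap (-0.44 ± 0.06, adjusted p = 7.33e-06). Col15a1, a collagen of the basement membrane zone, had 23.2, 32.9 and 40.9 CPM in old mice and 48.3, 59.1 and 75.3 CPM in young mice without overlap (-0.90 ± 0.11, adjusted p = 1.16e-06).

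Enzymes that cut or process matrix moved both ways. Of 15 proteases and inhibitors 3 rose, among them Adamts1 and Mmp3, and 6 fell. Adamts1, a secreted protease that cleaves proteoglycans, had 56.2, 105 and 156 CPM in old mice and 42.6, 53.9 and 114 CPM in young mice (0.72 ± 0.19, adjusted p = 0.00611). Among those that fell, Mmp2, a gelatinase, changed by -0.61 ± 0.14 (adjusted p = 0.00125), Adamts2, which trims procollagen, by -0.63 ± 0.11 (adjusted p = 7.27e-05) and Ctsk, cathepsin K, by -0.73 ± 0.19 (adjusted p = 0.00436; -0.61, adjusted p = 0.057, without old mice 1, 4 and 5). The Adamts2 values did not overlap, those of Mmp2 and Ctsk did, and young mouse 6 was the highest young mouse for all 3.

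Most fibroblast markers were lower too. Of 10 fibroblast markers 8 fell and none rose (median -0.39). Their sum, most of it from Gsn, was 703 to 1013 CPM in old mice and 1038 to 1421 CPM in young mice, without overlap. Gene by gene, the groups did not overlap for 1 of the 10 (background 1.32%). Pdgfra, the receptor that defines fibro-adipogenic progenitors, had 33.4, 47.0 and 52.0 CPM in old mice and 47.9, 60.9 and 71.4 CPM in young mice (-0.44 ± 0.08, adjusted p = 0.000275). Gsn, gelsolin, had 488, 581 and 754 CPM in old mice and 737, 825 and 1045 CPM in young mice (-0.47 ± 0.08, adjusted p = 9.44e-05). Of 9 tendon markers 6 fell (median -0.64), with sums of 198 to 530 CPM in old mice and 431 to 616 CPM in young mice. Thbs4, a thrombospondin of tendon and muscle, changed by -0.76 ± 0.17 (adjusted p = 0.00177) and Chad, chondroadherin, by -0.99 ± 0.19 (adjusted p = 0.000225). The part of tendon carried along with the muscle in the matrix result was not tested.

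Of 11 endothelial markers 4 fell and none rose (median -0.21), among them Tie1, a receptor of the vessel wall (-0.31 ± 0.07, adjusted p = 0.00184), and Cdh5, the endothelial cadherin (-0.27 ± 0.08, adjusted p = 0.011). The Cdh5 call ended without old mice 1, 4 and 5 (-0.20, adjusted p = 0.13), without young mice 4, 7 and 9 (-0.22, adjusted p = 0.073) and among controls numbered 1 to 6 (-0.19, adjusted p = 0.16). Of 10 smooth muscle and pericyte markers 1 fell, Pdgfrb. Without old mice 1, 4 and 5 the matrix count was 14 of 27 (median -0.57), the basement membrane count 8 of 17, the fibroblast marker count 3 of 10, the tendon count 4 of 9 and the endothelial count 1 of 11. Leaving out single libraries gave 15 to 21 matrix genes lower, and none higher.

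**Figure D4:**
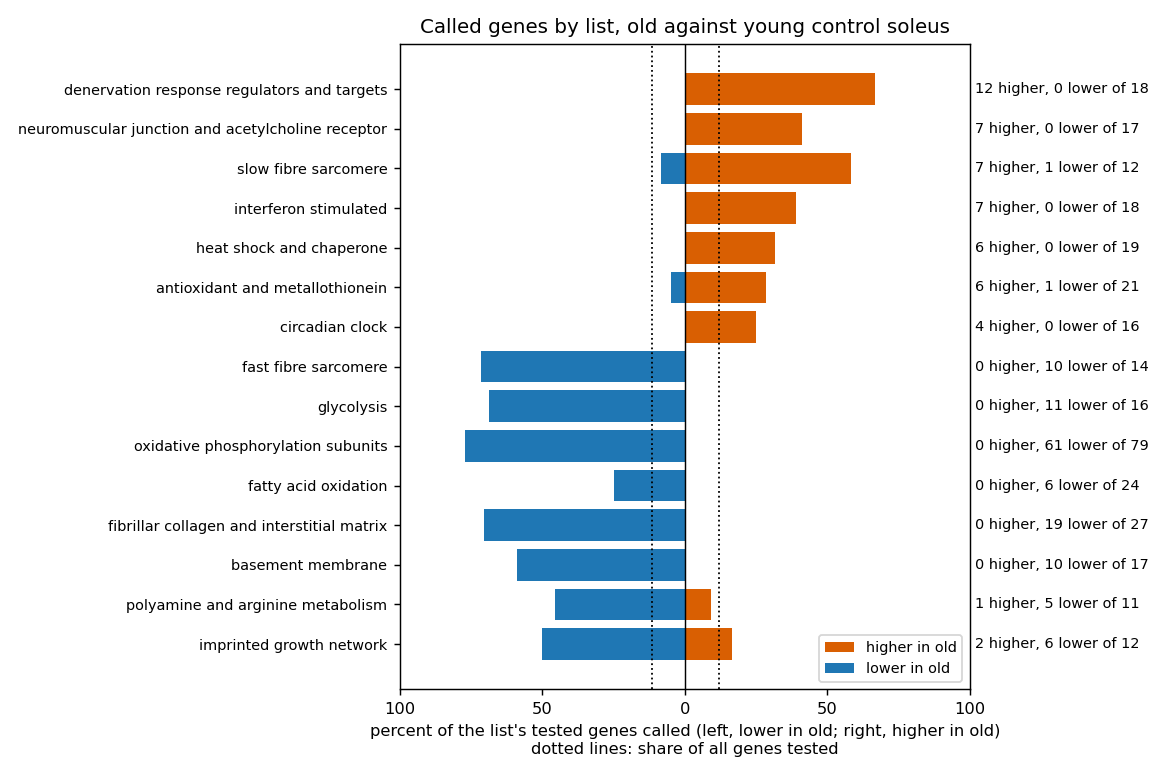
Percent of the tested members of 15 gene lists that were higher or lower in old than in young control soleus (edgeR adjusted p under 0.05), with dotted lines at the 12.1% higher and 11.6% lower of all genes tested. Denervation, slow sarcomere and synaptic genes stand above the line for rises, and respiratory chain, fast sarcomere, glycolysis, matrix and basement membrane genes above the line for falls.

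Of 18 interferon-stimulated genes 7 rose and none fell, with a median of 0.55. Irf7, the transcription factor that amplifies interferon signalling (chr7:141263183-141266424), had 2.51, 3.65 and 21.9 CPM in old mice and 2.35, 2.96 and 4.47 CPM in young mice (1.55 ± 0.36, adjusted p = 0.00194; 1.07, adjusted p = 0.088, from its most abundant transcript alone). Old mice 3, 4 and 6 had 20.7, 15.0 and 21.9 CPM, old mouse 5 had 8.45 CPM, and the other 5 old mice lay within the young range. The antiviral genes Ifit1 (1.41 ± 0.36, adjusted p = 0.00413), Isg15 (1.18 ± 0.33, adjusted p = 0.00898) and Ifit2 (0.77 ± 0.22, adjusted p = 0.0098) had their 3 highest values in the same old mice 3, 4 and 6. In limma voom with sample weights these 3 fell just short of the threshold, at adjusted p of 0.053, 0.098 and 0.054. Without young mice 1, 2, 7 and 8 Isg15 (adjusted p = 0.059) and Ifit2 (adjusted p = 0.075) were not called.

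The interferon sum was 317, 199 and 324 CPM in old mice 3, 4 and 6, 101 to 124 CPM in the other 6 old mice and 110 to 161 CPM in young mice. Without old mice 3, 4 and 6 none of the 18 rose and 1 fell, with a median of -0.17, and Irf7 stood at 0.37 (adjusted p = 0.34). Red blood cell markers were high in 2 of these mice: they summed to 598 and 652 CPM in old mice 3 and 6, 174 to 266 CPM in the other old mice and 161 to 314 CPM in young mice. The erythroid calls, 3 of 11 higher, were also absent without old mice 3, 4 and 6, and Slc4a1, the anion exchanger of red cells (1.37 ± 0.44, adjusted p = 0.0213), was not called without old mouse 3 (0.81, adjusted p = 0.13) or without old mouse 6 (1.05, adjusted p = 0.072), nor without either set of young mice (largest adjusted p 0.088). The part of blood in the interferon result was not tested.

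Of 23 macrophage genes 1 was called, Ccr2, the receptor that guides monocytes into tissue, with 2.02, 3.05 and 4.80 CPM in old mice and 3.16, 7.13 and 9.74 CPM in young mice (-0.99 ± 0.26, adjusted p = 0.00648). Of 14 antigen presentation genes 5 fell, all of the class II pathway, and 1 rose, the class I gene H2-Q7. H2-Ab1, a class II chain, had 4.81, 7.42 and 9.48 CPM in old mice and 8.18, 10.9 and 19.2 CPM in young mice (-0.64 ± 0.17, adjusted p = 0.00609), and without young mouse 6 the count of falls in this list was 1. Of 6 B and plasma cell genes with enough reads only Jchain, the joining chain of antibodies, rose; this rested on old mouse 6 with 3.39 CPM, and without it the log2 fold change was 1.05 (adjusted p = 0.15) against 2.51 ± 0.70 (adjusted p = 0.00856) with it.

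Of 21 antioxidant and metallothionein genes 6 rose and 1 fell (background 12.1% and 11.6%), 4 and 1 without old mice 1, 4 and 5. Nqo1, a quinone reductase under the control of the factor Nrf2 (chr8:107388225-107403205), had 63.6, 82.8 and 110.3 CPM in old mice and 33.7, 44.1 and 58.5 CPM in young mice without overlap (0.91 ± 0.12, adjusted p = 3.55e-06). Gclc, the catalytic subunit for glutathione synthesis, had 21.9, 22.4 and 37.4 CPM in old mice and 16.1, 18.4 and 20.4 CPM in young mice, also without overlap (0.48 ± 0.09, adjusted p = 0.000313). Srxn1, sulfiredoxin, rose by 0.64 ± 0.12 (adjusted p = 0.000283) and Gsta4, a glutathione transferase for lipid aldehydes, by 0.54 ± 0.09 (adjusted p = 7.49e-05). The gene that fell was Sod2, the mitochondrial superoxide dismutase.

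Of 19 heat shock and chaperone genes 6 rose and none fell (background 12.1% and 11.6%), 4 of them small heat shock proteins, and 4 of the 19 rose without old mice 1, 4 and 5. Hspb7 had 943, 1021 and 1255 CPM in old mice and 575, 758 and 964 CPM in young mice (0.46 ± 0.11, adjusted p = 0.00316), Hspb6 had 503, 629 and 735 CPM in old mice and 393, 436 and 519 CPM in young mice (0.44 ± 0.10, adjusted p = 0.00135), and Hspb3 rose by 0.43 ± 0.11 (adjusted p = 0.00471). For both Hspb7 and Hspb6 young mouse 8 was the highest young mouse, and only it lay above any old mouse. Hspb8, a partner in the removal of damaged sarcomere proteins, rose by 0.53 ± 0.13 (adjusted p = 0.00358), a call that ended without old mice 1, 4 and 5 (0.25, adjusted p = 0.15). Of 19 genes of the unfolded protein and integrated stress responses 1 rose, Atf3, an immediate stress factor with 8.23, 42.0 and 202 CPM in old mice and 9.64, 20.7 and 37.0 CPM in young mice (1.66 ± 0.47, adjusted p = 0.0102; 0.89, adjusted p = 0.13, without old mice 3, 4 and 6; 1.26, adjusted p = 0.081, without old mice 1, 4 and 5), and 1 fell, Chac1.

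Of 17 senescence and p53 target genes 5 rose and 3 fell (background 12.1% and 11.6%). Eda2r, a receptor of the tumour necrosis factor family, had 20.5, 31.2 and 139 CPM in old mice and 16.3, 26.0 and 31.6 CPM in young mice (1.12 ± 0.30, adjusted p = 0.00647), and 0.14 (adjusted p = 0.70) without old mice 1, 4 and 5 and 1.06 (adjusted p = 0.052) without young mice 1, 2, 7 and 8. Ccng1, cyclin G1, had 552, 628 and 711 CPM in old mice and 729, 820.0 and 887 CPM in young mice without overlap (-0.40 ± 0.06, adjusted p = 2.65e-05). Cdkn2c, a cell cycle inhibitor of the INK4 family, had 1.71, 2.21 and 2.38 CPM in old mice and 2.68, 3.11 and 3.52 CPM in young mice, also without overlap (-0.54 ± 0.09, adjusted p = 6.28e-05). None of the 17 rose and 2 fell without old mice 1, 4 and 5.

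Of 16 clock genes 4 rose and none fell (background 12.1% and 11.6%), and the same count held without each of the 4 sets of libraries left out. Under other loading, with fewer mice, the counts differed. In old unloaded mice 1 was higher and 1 lower (background 4.64% and 5.16%), and edgeR's test of controls against unloaded mice called no gene. In old reloaded mice 2 were higher and 4 lower (background 10% and 9.67%). In the test of controls against reloaded mice, 5 of the 16 had a higher and 2 a lower old over young ratio in controls (background 2.49% and 2.32%). Per1 (chr11:69098956-69109957) had 19.5, 35.1 and 54.2 CPM in old mice and 9.92, 14.3 and 27.9 CPM in young mice (1.25 ± 0.20, adjusted p = 3.18e-05). Young mouse 7 was the only young mouse above the lowest old mouse. Cry2 had 40.7, 49.2 and 68.3 CPM in old mice and 29.4, 36.1 and 41.7 CPM in young mice (0.54 ± 0.09, adjusted p = 3.48e-05). Per2 rose by 0.94 ± 0.20 (adjusted p = 0.000954) and Ciart, another repressor of the clock, by 1.13 ± 0.26 (adjusted p = 0.00213).

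Igf1, insulin-like growth factor 1 (chr10:87858265-87937047), had 15.3, 19.4 and 23.8 CPM in old mice and 26.5, 31.7 and 45.1 CPM in young mice without overlap (-0.78 ± 0.13, adjusted p = 3.66e-05). Its receptor Igf1r had 42.7, 50.4 and 56.6 CPM in old mice and 33.6, 40.8 and 44.4 CPM in young mice (0.35 ± 0.07, adjusted p = 0.000298). Mstn, myostatin, which restrains muscle growth, had 0.441, 1.07 and 1.72 CPM in old mice and 1.02, 1.44 and 3.87 CPM in young mice (-0.88 ± 0.29, adjusted p = 0.0236), a call that ended on leaving out young mouse 4, 7 or 9 (largest adjusted p 0.0688) and stood at -0.20 (adjusted p = 0.65) without all 3. It also ended without old mice 1, 4 and 5 (-0.80, adjusted p = 0.094), without old mice 3, 4 and 6 (-0.73, adjusted p = 0.10) and among controls numbered 1 to 6 (-0.58, adjusted p = 0.22). In the growth factor list of 17 genes 2 rose and 5 fell (background 12.1% and 11.6%).

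Of 13 satellite cell genes 3 fell and none rose (background 11.6% and 12.1%): Chodl, a membrane lectin, with 3.06, 5.71 and 9.71 CPM in old mice and 10.3, 12.0 and 13.1 CPM in young mice without overlap (-0.88 ± 0.13, adjusted p = 1.94e-05), Cd34 (-0.27 ± 0.07, adjusted p = 0.00352; -0.17, adjusted p = 0.086, without old mice 1, 4 and 5) and Hes1. Pax7, the factor that defines these cells, had 1.20, 1.86 and 2.49 CPM in old mice and 1.42, 1.97 and 2.87 CPM in young mice (-0.19 ± 0.16, adjusted p = 0.431). Of 13 ubiquitin ligases linked to atrophy 2 rose and 2 fell (background 12.1% and 11.6%). Trim63, or MuRF1, had 113, 132 and 297 CPM in old mice and 154, 230.3 and 349.6 CPM in young mice (-0.48 ± 0.18, adjusted p = 0.0441), a call that ended on leaving out any of 11 of the 18 libraries (old mice 1, 2, 3, 6, 7 and 8 and young mice 1, 2, 3, 4 and 7), with values of -0.63 to -0.39, and without each set of libraries other than old mice 1, 4 and 5. Fbxo32, or atrogin-1, had 502, 613 and 933 CPM in old mice and 555, 625 and 744 CPM in young mice (0.06 ± 0.12, adjusted p = 0.768).

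Of 11 genes of polyamine and arginine metabolism 5 fell and 1 rose, Odc1. Smox, spermine oxidase, had 5.71, 6.69 and 7.84 CPM in old mice and 8.62, 9.67 and 21.3 CPM in young mice without overlap (-0.96 ± 0.15, adjusted p = 2.06e-05). Amd1, the decarboxylase that supplies the aminopropyl group, had 28.7, 38.7 and 46.6 CPM in old mice and 42.4, 58.9 and 96.0 CPM in young mice (-0.73 ± 0.11, adjusted p = 1.91e-05). The table lists Amd1 (chr10:40287458-40302188) and Amd2 (chr10:40287465-40302186) at nearly the same position, so the reads of these 2 symbols are not independent. Smox and Amd1 were highest in young mice 4, 7 and 9, and without them the changes were -0.49 and -0.47. Sms, spermine synthase, fell by 0.25 ± 0.05 (adjusted p = 0.000185).

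Imprinted growth genes were lower in old soleus in 6 of 12 cases and higher in 2 (background 11.6% and 12.1%). Meg3, a maternally expressed noncoding RNA, had 3.84, 5.19 and 6.03 CPM in old mice and 7.00, 8.93 and 43.8 CPM in young mice without overlap (-1.33 ± 0.25, adjusted p = 0.000202). Its neighbour Rian had 2.66, 4.96 and 6.59 CPM in old mice and 6.91, 8.98 and 36.9 CPM in young mice, also without overlap (-1.30 ± 0.23, adjusted p = 0.000142). Young mouse 6 was far above the other 8 young mice for both, and without it the changes were -0.80 for Meg3 and -0.86 for Rian. Grb10, an imprinted adaptor that restrains insulin signalling, rose by 0.32 ± 0.08 (adjusted p = 0.00236). Young mouse 6 was also the single young mouse with high Myh3, the embryonic myosin, at 212 CPM against 21.9 to 48.9 CPM in the other young mice and 80.8 to 204 CPM in old mice. Myh3 rose by 1.45 ± 0.36 (adjusted p = 0.00361), by 2.17 without young mouse 6, and stood at 1.05 (adjusted p = 0.081) without young mice 1, 2, 7 and 8.

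A few further genes stood out by size. Lars2, mitochondrial leucyl-tRNA synthetase, had 70.7, 92.7 and 319.9 CPM in old mice and 139, 301 and 982 CPM in young mice (-2.02 ± 0.36, adjusted p = 0.000119). It was highest in young mice 1, 2, 7 and 8, with 642 to 982 CPM, the same mice in which the ribosomal precursor Rn45s was highest, with 6167 to 8978 CPM, and without them Lars2 stood at -0.81 (adjusted p = 0.067). Rn45s itself took 0.271% of reads in old mice and 0.517% in young mice (exact two-sided permutation p = 0.000247, adjusted 0.000864). The other young mice had 3091 to 3852 CPM of Rn45s and the old mice 2204 to 3419 CPM. All libraries were depleted of ribosomal RNA, and the part of uneven depletion in the Rn45s share was not tested. The part of this precursor in the Lars2 result was not tested. Angptl4, an inhibitor of lipoprotein lipase that responds to fasting, had 4.66, 6.47 and 10.0 CPM in old mice and 2.97, 17.1 and 72.8 CPM in young mice (-1.73 ± 0.36, adjusted p = 0.000665). The young range of Angptl4 enclosed the old range.

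Of 12 adipocyte markers 2 rose and none fell (background 12.1% and 11.6%). Cidea, a lipid droplet protein, had 6.30, 7.57 and 8.98 CPM in old mice and 2.69, 4.46 and 7.48 CPM in young mice (0.71 ± 0.14, adjusted p = 0.000366). Car3, carbonic anhydrase 3, which slow fibres also make, had 1642, 2130.0 and 3132 CPM in old mice and 1017, 1469 and 1858 CPM in young mice (0.65 ± 0.16, adjusted p = 0.0029; 0.49, adjusted p = 0.055, without old mice 1, 4 and 5). The other 10 markers did not pass the test. Ttn, which encodes titin, the giant spring of the sarcomere, rose by 0.15 ± 0.05 (adjusted p = 0.0299), and the call ended without old mouse 3, old mouse 4 or young mouse 2 (largest adjusted p 0.0637) and without each of the 4 sets of libraries (0.12 to 0.16, largest adjusted p 0.15). As a share of all reads, Ttn took 25.7% in old mice and 23.4% in young mice, without overlap (exact two-sided permutation p = 4.11e-05, adjusted 0.000288).

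Old mice differed more among themselves than young mice did. Among 9436 genes averaging 5 CPM or more, the median standard deviation of log2 CPM was 0.14 in old mice and 0.11 in young mice, and the old value was more than 2 times the young value for 1383 genes while the young value was more than 2 times the old for 146. A limma fit to each library's distance from its group mean called 58 genes with a wider spread in old mice (0.386%) and 20 with a wider spread in young mice (0.133%). That balance did not hold on leaving out single young mice: 11 genes were wider in old mice and 18 in young mice without young mouse 1, 10 in old and 13 in young without young mouse 5, and 16 in old and 14 in young without young mouse 9. Igfn1, an immunoglobulin and fibronectin domain protein of skeletal muscle, had a standard deviation of 0.91 in old mice and 0.11 in young mice on the log2 scale, with 12.5, 19.1 and 64.6 CPM in old mice and 11.5, 13.0 and 14.3 CPM in young mice. Irf7 had 1.29 in old mice and 0.27 in young mice, Camk2d, a calcium-dependent kinase, 0.27 in old mice and 0.05 in young mice, and Tmbim1, a membrane protein, 0.17 in old mice and 0.06 in young mice. Without old mice 1, 4 and 5 the spread calls of Camk2d (adjusted p = 0.21) and Tmbim1 (adjusted p = 0.56) ended, and without old mice 3, 4 and 6 that of Irf7 (adjusted p = 0.54). Without young mice 1, 2, 7 and 8 all 4 spread calls ended (adjusted p = 0.079 each), and without young mice 4, 7 and 9 those of Igfn1 (adjusted p = 0.072), Irf7 and Camk2d (adjusted p = 0.091 each).

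Camk2d and Tmbim1 were also higher in every old mouse than in every young mouse (0.43 ± 0.09, adjusted p = 0.000854, and 0.33 ± 0.06, adjusted p = 0.000107). A wider spread in young mice was found for Smox (0.13 in old mice and 0.56 in young mice), Rn45s (0.20 in old mice and 0.62 in young mice) and Hspd1, a mitochondrial chaperonin (0.09 in old mice and 0.27 in young mice). The Smox call ended without young mice 4, 7 and 9 (adjusted p = 0.85), and without young mice 1, 2, 7 and 8 those of Rn45s (adjusted p = 0.80) and Hspd1 (adjusted p = 0.23) ended; each also ended on leaving out single libraries. The spread calls were fragile: leaving out 1 library gave 16 to 143 of them, and no gene was called when distances were taken from the group median.

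The age difference was also measured in the mice with other loading. Old against young unloaded soleus gave 1474 called genes (9.81% of those tested; 4.64% higher and 5.16% lower), and old against young reloaded soleus 2960 (19.7%; 10% higher and 9.67% lower), from different animals than the controls. Of the 3561 genes called in controls, 893 were called in the same direction in unloaded soleus, which is 25.1% of the control calls and 60.6% of the unloaded calls, and 3 in the opposite direction. In reloaded soleus 993 were called in the same direction, 27.9% of the control calls and 33.5% of the reloaded calls, and 52 in the opposite direction. In all 3 conditions 226 genes were higher and 196 lower in old mice. Liver transcripts moved with some reloaded libraries: 4 of the 8 reloaded libraries (old 2 and 4, young 1 and 2) had Alb above 20 CPM, and without them 818 genes were called.

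Several of the genes called between old and young controls were called in the same direction under every loading. Gnal was higher by 2.39 ± 0.19 in controls, 2.45 ± 0.27 in unloaded and 2.78 ± 0.28 in reloaded soleus (largest adjusted p 4.49e-07). Amph differed by 2.18 ± 0.20, 2.22 ± 0.28 and 1.15 ± 0.33, Nqo1 by 0.91 ± 0.12, 1.06 ± 0.17 and 0.61 ± 0.19, Eno3 by -0.74 ± 0.10, -0.58 ± 0.14 and -0.69 ± 0.15, and Col6a1 by -0.93 ± 0.10, -0.66 ± 0.13 and -0.48 ± 0.15 in the same order, each called in all 3. As groups, glycolysis genes were lower in 11, 10 and 10 of 16 cases in controls, unloaded and reloaded mice. The count of respiratory chain subunits called lower was 61 of 79 in controls, 1 in unloaded and 2 in reloaded mice. The groups differ in size, so these counts alone do not show that the age difference changed.

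Whether the age difference itself changed with loading was tested by interaction. Against unloaded mice no gene was called by edgeR (1487 had an unadjusted p under 0.05, and the smallest adjusted p was 0.0696), while DESeq2 called 8 and limma voom 13. Against reloaded mice 724 genes were called (4.82%), 375 (2.49%) with a higher and 349 (2.32%) with a lower old over young ratio in controls. Of the 79 respiratory chain subunits, 8 were called in that test, all with a lower ratio in controls. Without the 4 reloaded libraries above 20 CPM of Alb, 153 genes were called.

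From that test 8 genes were taken by smallest adjusted p among those averaging 5 CPM or more in controls, predicted and small RNA genes left out. Of these 8, 7 had age differences of opposite sign in controls and reloaded mice. Lrrc30, a leucine-rich repeat protein, had medians of 43.4 CPM in old and 62.3 CPM in young controls, and of 30.1 CPM in old and 17.4 CPM in young reloaded mice. Its log2 age difference was -0.54 ± 0.10 in controls and 0.86 ± 0.16 in reloaded mice, a difference of -1.40 ± 0.19 (adjusted p = 0.000157). Ccng1 differed by -0.40 ± 0.06 in controls and 0.42 ± 0.09 in reloaded mice (interaction -0.82 ± 0.11, adjusted p = 0.000157). Exoc4, a subunit of the exocyst that tethers secretory vesicles, differed by -0.16 ± 0.04 in controls and 0.38 ± 0.07 in reloaded mice (-0.54 ± 0.08, adjusted p = 0.000363), although its difference in controls was not called without old mice 3, 4 and 6 (-0.13, adjusted p = 0.066) or among controls numbered 1 to 6 (-0.14, adjusted p = 0.071). Suox, sulfite oxidase, differed by -0.47 ± 0.07 in controls and 0.39 ± 0.11 in reloaded mice (-0.86 ± 0.13, adjusted p = 0.000539).

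In the other direction, Hspb6 differed by 0.44 ± 0.10 in controls and -0.68 ± 0.15 in reloaded mice (interaction 1.12 ± 0.18, adjusted p = 0.000981). Gprc5b, an orphan receptor, differed by 0.52 ± 0.10 in controls and -0.56 ± 0.15 in reloaded mice (1.08 ± 0.18, adjusted p = 0.00145). Aamdc differed by -0.22 ± 0.05 in controls and 0.38 ± 0.08 in reloaded mice (-0.60 ± 0.10, adjusted p = 0.00102), and Gpr146, a G protein-coupled receptor, by -0.13 ± 0.06 in controls and -0.73 ± 0.08 in reloaded mice (0.60 ± 0.10, adjusted p = 0.00189). All 8 kept their interaction call without the 4 reloaded libraries with liver transcripts. Among the genes described above, Ryr2 (1.95 ± 0.42, adjusted p = 0.00901) and Per1 (1.79 ± 0.35, adjusted p = 0.00538) also had a higher old over young ratio in controls than in reloaded mice.

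**Figure D5:**
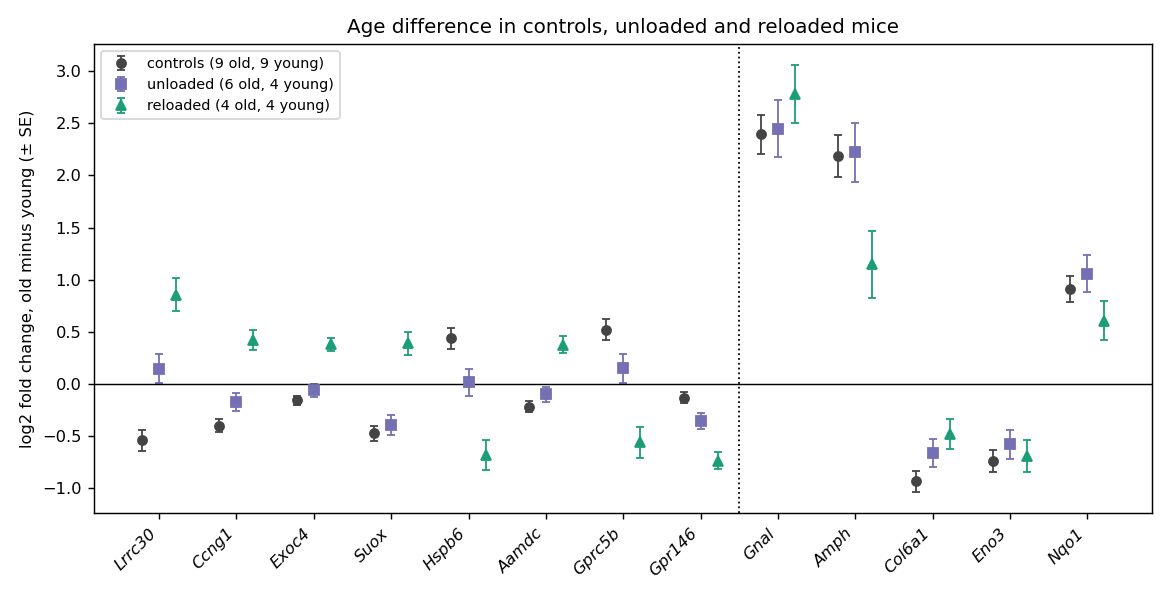
Log2 age difference (old over young, with its standard error) in control, unloaded and reloaded soleus for the 8 genes taken from the test of controls against reloaded mice, and for Gnal, Amph, Col6a1, Eno3 and Nqo1. Lrrc30, Ccng1, Exoc4, Suox, Hspb6, Aamdc and Gprc5b lie on opposite sides of 0 in controls and reloaded mice, and the last 5 genes keep 1 sign in all 3 conditions.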

How the data were processed

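Total RNA of 36 mouse soleus muscles was sequenced, 1 library per mouse, of which 18 controls are compared here. Per the labels' protocols, RNA was depleted of ribosomal RNA and read as single 50-base reads on a HiSeq 2500; 2 library kits are named, 1 of them stranded, and no source used here says whether counting used strand. Tools listed in the submitters' processing notes, without a role, are TopHat2 2.0.1, Partek 6.6 and DESeq, and the build is mm10. The table deposited by the authors gives estimated counts of reads per transcript (55.68% whole within 0.01 reads) beside RPKM, which was not used. Here the estimated counts of 31668 transcript rows were summed per gene symbol, after 56 rows with date-like symbols were restored to 25 genes, and rounded to whole numbers for 21156 genes.

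Genes passing edgeR's expression filter (15031) were tested in R 4.3.3 with edgeR 4.0.16, by TMM scaling and the quasi-likelihood test in a model of 6 groups over 36 libraries with 30 residual degrees of freedom; genes with a Benjamini-Hochberg adjusted p under 0.05 were called. All adjusted p in the text come from this fit unless another tool is named. Spread was tested with limma 3.58.1 on absolute deviations of log2 CPM from the group mean, and shares of reads by exact permutation over 48620 splits. Alternatives were DESeq2 1.42.0, limma voom with sample weights, other scaling, filters and transcripts, a replicate block, only the groups compared, and each control left out. On simulated counts for the control comparison over 14670 genes, edgeR recovered 80 of 100 genes changed 1.5-fold and 93 of 100 changed 2-fold, with 6 false calls. With a log2 SD of 1 added in old mice, the spread test recovered only 44 of 200 genes, with 3 false calls over 14702 genes. The libraries held 31.97 to 37.93 M reads. Mouse numbers did not pair the samples: same-numbered old and young mice correlated at -0.23 to 0.2.

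The members and gene lists were chosen with earlier results of these data known. Genes were named as the 10 steepest rises and the 10 steepest falls among those called and averaging 5 CPM or more, up to 4 members of each list by adjusted p, a list of tracked genes, and the first genes by adjusted p for spread and interaction; 127 of the 203 that this names are described. The 5 CPM mean was taken over both ages, so a gene low in 1 age could pass it through the other. Other members of short counts were named after their values were seen. Leaving out old mice 1, 4 and 5 (a gene not reported here), young mice 4, 7 and 9 (Myh4), old mice 3, 4 and 6 (Irf7), young mice 1, 2, 7 and 8 (Rn45s) or 4 reloaded libraries (Alb), and keeping only controls numbered 1 to 6, were chosen after seeing the data.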

Additional observations from a re-analysis of the deposited data

Results flagged for a closer look

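In 34 of 254 groups of 9 values (127 genes in old and in young controls), 1 library stood far from the other 8. The cutoff used gives this in about 1 group in 20 for independent, normally distributed values. CPM need not be normally distributed and genes that vary together are not independent, so the number expected here is not known. Young mouse 6 was the highest in 12 of the 34. It had 909 CPM of Col3a1, 132 of Col6a1, 315 of Sparc, 75.3 of Col15a1 and 172 of Nid1. It also had 25.7 CPM of Adamts2, 116 of Mmp2, 15.0 of Ctsk, 19.2 of H2-Ab1, 36.9 of Rian, 43.8 of Meg3 and 212 of Myh3. Matrix, class II, imprinted and embryonic myosin genes were thus all high in the same young mouse.

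Young mouse 8 was the highest in 6, with 16630.3 CPM of Myh7, 1390.4 of Tnni1, 11.7 of Ryr3, 4.30 of Amph, 15.3 of Tecrl and 250594 of Ttn. Each of these genes was higher in old than in young mice, so for these 6 genes this library lay nearest to the old group. They are listed for their outlying value in this library and do not describe its other genes. On the first principal component its score of 5.55 was the young score nearest to the old mice. Young mouse 3 had 72.8 CPM of Angptl4, young mouse 7 had 27.9 of Per1 and young mouse 1 had 0.182 of Krt8.

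Among old mice, number 5 was the highest for 4 genes, with 138 CPM of Aif1l, 18.1 of Chrng, 77.6 of Lrp4 and 158 of Musk. Old mouse 1 had 319.9 CPM of Lars2 and the lowest Myh2, at 9511 CPM. Old mouse 6 had 3.39 CPM of Jchain and the lowest Col3a1 and Col6a2, at 78.0 and 25.7 CPM. Old mouse 8 had 752 CPM of Myh4, old mouse 2 had 7.65 of Kcng4, old mouse 3 had 140.1 of Grb10 and old mouse 4 had 447 of Ppargc1a.

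The age difference itself differed between controls and reloaded mice for 724 genes in edgeR's interaction test, and the 8 described first above are listed here. On the log2 scale the age difference in controls minus that in reloaded mice was -1.40 for Lrrc30, -0.82 for Ccng1, -0.54 for Exoc4, -0.86 for Suox and -0.60 for Aamdc. The same measure was 1.12 for Hspb6, 1.08 for Gprc5b and 0.60 for Gpr146.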

How the results depend on the processing

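The count of genes called between old and young controls, 3561, was 2867 to 3806 under other scalings, filters, tools and designs (3462 with a replicate block, although mouse numbers do not pair the samples) and 3048 to 3726 on leaving out 1 control; it was 1889 without old mice 1, 4 and 5, where fewer samples were tested. No gene called both in the main fit and in any of these differed in direction between them. Sign changes in genes that lost their call were not counted. Of 119 called genes named, 105 kept their call in each of these other scalings, filters, tools and designs, and on leaving out any 1 control, wherever they were tested; 7 were not tested under the stricter filter and 3 in the fit of only the groups compared. Fbxo32, not called at 0.06, was -0.026 in limma voom, -0.077 without old mice 1, 4 and 5, and -0.0265 (without old mouse 5) to 0.0974 on leaving out 1 control. The 78 spread calls were 694 with no filter on low counts, 44 with a stricter filter and 0 from group medians; they were 156, 4, 426 and 2 without old mice 1, 4 and 5, young mice 4, 7 and 9, old mice 3, 4 and 6, and young mice 1, 2, 7 and 8, and 16 to 143 on leaving out 1 control. A replicate block gave 0, by construction, since the paired deviations are then equal. For old against young unloaded mice, 1474 became 2907 in limma voom (1538 with the block). For reloaded mice, 2960 became 695 when only those groups were fitted and 818 once the Alb libraries were left out (2741 with the block). The interaction with unloading, 0 calls, gave 3 with the block, 5 from only the groups compared, 8 in DESeq2, 13 in limma voom, 11 without old mice 1, 4 and 5, 59 among controls numbered 1 to 6, and 0 to 2 on leaving out 1 control. The interaction with reloading, 724, gave 367 from only the groups compared, 1195 in DESeq2, 437 without young mice 1, 2, 7 and 8, 153 without the Alb libraries, 593 with the block and 545 to 794 on leaving out 1 control. With DESeq2 1810 genes were higher and 1918 lower between controls. The cause of these changes was not tested.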
